A study of Mus musculus with 12 samples.

Results

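The genes described here are 10 standard markers of T cells, NK cells and B cells, read from the bulk count table of 47643 mouse genes. They are the CD3 subunits Cd3d, Cd3e and Cd3g and the T cell receptor constant gene Trbc2, the NK and cytotoxic cell genes Nkg7 and Ccl5, and the B cell genes Cd79a, Cd79b, Ighm and Igkc. They were picked by name, with earlier results of these data known, and all 10 had a row in the table and at least 1 count. The samples came from brains of 5 old male p16-3MR mice on a C57BL/6 background, mice 1 to 5, which were 113, 115, 116, 116 and 116 weeks of age. All carried a transgene in which the p16 promoter drives a fusion of Renilla luciferase, monomeric red fluorescent protein (RFP) and a truncated viral thymidine kinase. Viable nucleated cells of each brain were sorted into a low fluorescence sample (RFPLow, labelled RFPneg) and a high fluorescence sample (RFPHigh, labelled RFPpos), so that both samples of a number came from 1 mouse. No treatment and no young group entered this comparison, no gate on lymphocytes is given for the sort, and the RFP signal is a readout of the transgene. Counts on genes were between 177287 and 415834 per RFPLow sample and between 222560 and 289713 per RFPHigh sample.

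The brain parenchyma holds few lymphocytes, and those present sit mostly in vessels, meninges, choroid plexus and, with age, in small numbers in the tissue. A T cell recognises antigen with a receptor of variable chains whose signal is passed on by the CD3 subunits. NK cells and cytotoxic T cells share a killing programme of granule proteins and chemokines. A B cell carries an antibody made of paired heavy and light chains on its surface, next to the signalling pair that Cd79a and Cd79b encode.

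At this depth 1 count was worth 2.40 to 5.64 CPM, in which a gene's counts are scaled by the sample's total on genes, in RFPLow samples and 3.45 to 4.49 CPM in RFPHigh samples. A gene was tested with edgeR's quasi-likelihood test, with the mouse as a block, when it had at least 5 counts over the 10 samples. It was called lower or higher in RFPHigh at a Benjamini-Hochberg adjusted p under 0.05 over the 14100 tested genes and a log2 fold change beyond 1 in size. Standard errors (SE) of log2 fold changes were taken from the size of the change and its F value. With 3' tags, longer transcripts do not collect more counts, but levels of different genes are still compared only loosely. In bulk samples fewer cells of a type cannot be told apart from less of its RNA per cell.

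Of the 10 genes, 6 had 0 counts in every RFPHigh sample, and for 5 of those (Cd3d, Cd3e, Cd3g, Nkg7 and Cd79a) a promoter was held in the sequence table used. These promoters are shown because these genes were all without counts in the RFPHigh samples. They come from RefSeq on GRCm38.p6 and reach from 250 bases before to 50 bases after the RefSeq gene start. They read 5′ to 3′ on the strand of the gene. For Cd3e, Nkg7 and Cd79a that start differs from the one in the gene coordinates given below. Capitals mark CACCTG or its reverse complement CAGGTG, an E-box that E proteins are known to bind in lymphocytes.
Cd3d promoter, chr9:44981536-44981835, plus strand: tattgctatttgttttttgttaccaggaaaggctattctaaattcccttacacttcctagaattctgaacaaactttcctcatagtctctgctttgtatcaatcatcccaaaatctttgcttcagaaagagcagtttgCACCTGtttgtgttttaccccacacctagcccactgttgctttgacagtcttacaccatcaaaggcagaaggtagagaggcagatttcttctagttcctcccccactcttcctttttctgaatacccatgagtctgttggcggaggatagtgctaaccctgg
Cd3e promoter, chr9:45009562-45009861, minus strand: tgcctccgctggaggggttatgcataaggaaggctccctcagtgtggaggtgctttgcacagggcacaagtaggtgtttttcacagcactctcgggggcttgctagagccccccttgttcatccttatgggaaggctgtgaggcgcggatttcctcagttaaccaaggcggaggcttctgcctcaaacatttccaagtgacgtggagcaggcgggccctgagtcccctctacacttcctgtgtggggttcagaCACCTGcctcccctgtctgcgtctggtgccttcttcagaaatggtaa
Cd3g promoter, chr9:44980382-44980681, minus strand: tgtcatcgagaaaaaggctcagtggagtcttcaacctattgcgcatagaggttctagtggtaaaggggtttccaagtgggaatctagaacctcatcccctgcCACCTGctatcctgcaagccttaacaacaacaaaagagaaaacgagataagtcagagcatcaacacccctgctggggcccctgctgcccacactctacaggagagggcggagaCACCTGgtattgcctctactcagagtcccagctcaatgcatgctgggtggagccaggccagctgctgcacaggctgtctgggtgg
Nkg7 promoter, chr7:43436888-43437187, plus strand: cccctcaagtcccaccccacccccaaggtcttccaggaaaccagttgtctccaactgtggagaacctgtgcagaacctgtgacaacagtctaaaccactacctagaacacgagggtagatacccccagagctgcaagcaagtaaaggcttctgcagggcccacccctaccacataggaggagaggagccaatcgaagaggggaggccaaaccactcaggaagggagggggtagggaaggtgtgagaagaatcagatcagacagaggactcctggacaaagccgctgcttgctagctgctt
Cd79a promoter, chr7:24897247-24897546, plus strand: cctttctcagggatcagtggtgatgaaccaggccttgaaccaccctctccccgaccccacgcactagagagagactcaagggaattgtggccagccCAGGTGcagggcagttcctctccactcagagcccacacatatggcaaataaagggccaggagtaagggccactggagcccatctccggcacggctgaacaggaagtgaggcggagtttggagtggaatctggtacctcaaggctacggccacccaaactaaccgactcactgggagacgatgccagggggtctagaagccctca
The letters occurred in 4 of the 5 promoters, with 2 matches in Cd3g and none in Nkg7. Of all 32851 promoters of 300 bases in the same table, 20.2% held them on either strand. A match describes the letters in this window only.

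The 4 T cell genes among the 10 had no count in any RFPHigh sample. The alpha and delta constant genes of the receptor, Trac and Trdc, which are companion genes named after their values were seen, did have RFPHigh counts, 3 for Trac (1 in mouse 2 and 2 in mouse 4, against 18 in RFPLow, adjusted p = 0.355, edgeR) and 2 for Trdc (against 0 in RFPLow, too few to test). Trbc2 (ENSMUSG00000076498; GRCm38 chromosome 6, 41546730 to 41548352, plus strand), a constant region of the receptor's beta chain, had 8, 4, 22, 13 and 6 counts in the RFPLow samples of mice 1 to 5. These counts were 45.1, 20.4, 52.9, 52.3 and 20.02 CPM (mean 38.2 ± 16.7, SD, n = 5). Every RFPLow sample held Trbc2 and no RFPHigh sample did, so that the groups did not overlap. Over the group, 53 counts against the 3 that a count of 0 allows made Trbc2 at least 16.2-fold lower in RFPHigh (adjusted p = 3.23e-06, edgeR), and it was called lower in every one of the 14 settings that tested it, with adjusted p from 2.26e-10 to 7.15e-04. Folds given as "at least", here and below, take the RFPLow counts as exact and leave out the spread over mice. They are not confidence limits.

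Trbc2 has a near-identical neighbour, Trbc1, and reads of the pair can be shared. Both coding sequences have 518 bases and differ at 23 of them (95.56% identity), and 19 of these lie in the last 120 coding bases, positions 399 to 518, where 3' tags can fall. The untranslated parts, 219 bases in Trbc1 and 174 in Trbc2, where 3' tags can fall too, were not compared. The stretches from the reference transcripts on GRCm38 are given here, with the bases that differ between the genes in capitals.
Trbc1, chr6:41539234-41539662, spliced, plus strand: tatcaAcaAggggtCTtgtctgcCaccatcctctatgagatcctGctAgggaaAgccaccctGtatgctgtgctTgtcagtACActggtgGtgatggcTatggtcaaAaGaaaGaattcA
Trbc2, chr6:41547777-41548178, spliced, plus strand: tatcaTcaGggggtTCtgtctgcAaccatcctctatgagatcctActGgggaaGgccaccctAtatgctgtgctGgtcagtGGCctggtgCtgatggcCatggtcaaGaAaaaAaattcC
Trbc1 had 2, 3, 15, 2 and 6 counts in the RFPLow samples and 0 in each RFPHigh sample (at least 8.57-fold lower, adjusted p = 0.00560, edgeR), although without mouse 3 its adjusted p was 0.115. How the authors' counting divided shared reads is not given in the sources used here, so each gene's own level is uncertain, while no RFPHigh sample held either gene.

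The CD3 subunits were much sparser, and none was called. Cd3d (ENSMUSG00000032094; chromosome 9, 44981786 to 44987339, plus strand), the delta subunit, had 0, 0, 6, 8 and 4 counts in the RFPLow samples (11.995 ± 13.3 CPM, SD, n = 5) and 0 in each RFPHigh sample. The RFPLow samples of mice 1 and 2 were thus at 0 as well, and the groups overlapped. Pooled, Cd3d was at least 5.51-fold lower in RFPHigh, with an adjusted p of 0.0720 (edgeR) with the mouse as a block and 0.00955 without it.

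Cd3g (ENSMUSG00000002033; chromosome 9, 44969572 to 44980431, minus strand), the gamma subunit, lies head to head with Cd3d. It had 2, 1, 0, 4 and 1 counts in the RFPLow samples (7.16 ± 6.46 CPM, SD, n = 5) and 0 in each RFPHigh sample (at least 2.45-fold lower, adjusted p = 0.261, edgeR). Cd3e (ENSMUSG00000032093; chromosome 9, 44998740 to 45009627, minus strand), the epsilon subunit, had 2 counts, both in the RFPLow sample of mouse 5. This was under the count needed for the test and under the limit that a count of 0 allows, so no difference was detectable for Cd3e at this depth. Summed, the 4 T cell genes had 10, 5, 28, 25 and 13 counts in RFPLow (58.6 ± 28.2 CPM, SD, n = 5) and 0 in RFPHigh, at least 24.8-fold lower.

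Genes of cytotoxic lymphocytes were present in all RFPLow samples and had 6 counts in all in RFPHigh. Nkg7 (ENSMUSG00000004612; chromosome 7, 43437073 to 43438249, plus strand), a membrane protein of cytotoxic granules, had 7, 1, 19, 5 and 7 counts in the RFPLow samples and 0 in each RFPHigh sample. The RFPLow levels were 39.5, 5.10, 45.7, 20.1 and 23.4 CPM (26.8 ± 16.2, SD, n = 5), lowest in mouse 2. Nkg7 was at least 11.9-fold lower in RFPHigh (adjusted p = 3.96e-04, edgeR), and its adjusted p stayed between 8.66e-07 and 0.0234 in the 14 settings that tested it.

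Ccl5 (ENSMUSG00000035042; chromosome 11, 83525778 to 83530518, minus strand) encodes a chemokine that effector T cells and NK cells store and release, and that activated myeloid cells can make too. It had 34, 11, 62, 49 and 53 counts in the RFPLow samples (191.8, 56.1, 149.1, 197 and 177 CPM) and 0, 0, 1, 5 and 0 counts in the RFPHigh samples. Again the RFPLow sample of mouse 2 was the lowest of its group, still above every RFPHigh sample, and 5 of the 6 RFPHigh counts were in mouse 4. Ccl5 averaged 154 ± 57.9 CPM in RFPLow and 4.89 ± 8.65 CPM in RFPHigh (SD, n = 5 each), which made a log2 fold change of −4.85 (SE 0.48, adjusted p = 2.90e-21, edgeR). The pooled ratio of RFPLow to RFPHigh was 32, with an exact interval of 14.5 to 88.2 that covers counting error only.

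B cell genes divided into genes that fell and genes that did not. Igkc (ENSMUSG00000076609; chromosome 6, 70726435 to 70726966, plus strand), the constant region of the kappa light chain that most mouse antibodies use, had 51, 46, 109, 81 and 129 counts in the RFPLow samples. In the RFPHigh samples it had 0, 1, 1, 0 and 0 counts. The levels were 288, 235, 262, 326 and 430 CPM in RFPLow (308 ± 76.2, SD, n = 5) and 0, 3.45, 4.48, 0 and 0 CPM in RFPHigh (1.59 ± 2.20, SD, n = 5), far from overlapping. The log2 fold change was −7.11 (SE 0.46, adjusted p = 2.63e-51, edgeR), and the pooled ratio was 191 with a counting interval of 52.6 to 1583. The adjusted p of Igkc lay between 7.72e-72 and 2.61e-10 over all 15 settings.

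Ighm (ENSMUSG00000076617; chromosome 12, 113418558 to 113422730, minus strand), the constant region of the mu heavy chain, had 61, 24, 82, 51 and 73 counts in RFPLow and 39, 54, 41, 64 and 56 in RFPHigh. The levels were 344, 122, 197, 205 and 244 CPM against 175, 186, 184, 256 and 231 CPM, and the groups overlapped throughout. Ighm was lower in RFPHigh in 3 mice and higher in 2. The means were 222.5 ± 80.9 and 206 ± 34.9 CPM (SD, n = 5 each), and the log2 fold change was 0.01, with a 95% interval of −0.42 to 0.45 and an adjusted p of 0.986 (edgeR). The counts do not separate secreted from membrane forms of the mu chain.

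The level of Ighm was also read against microglia genes, which were themselves higher in RFPHigh. Per 1000 counts of a list of 20 microglia genes, Ighm had 8.15 ± 2.00 in RFPLow and 3.85 ± 0.871 in RFPHigh (SD, n = 5 each) and was lower in RFPHigh in 5 of 5 mice. Library sizes taken from those microglia genes moved the median over all tested genes from −0.18 to −1.23, and the log2 fold change of Ighm was then −1.07 (adjusted p = 1.30e-04, edgeR). This is close to the shift of the median gene, so on that scale too Ighm did not stand below the typical gene. On the same scale Igkc was 11.6 per 1000 in RFPLow and 0.0292 in RFPHigh.

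**Figure D1:**
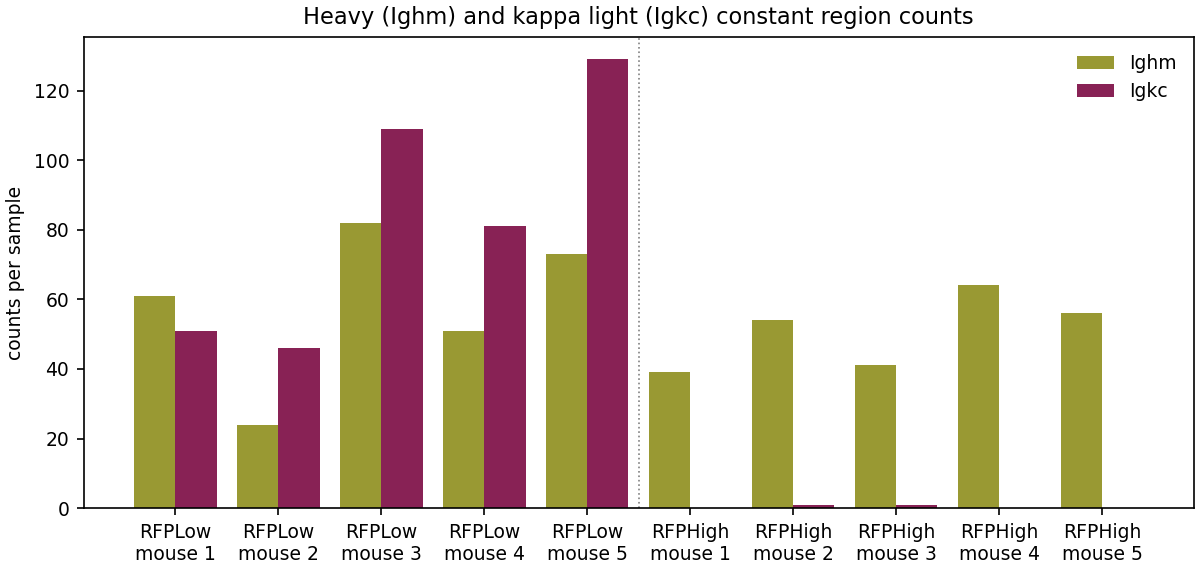
Counts of the mu heavy chain gene Ighm and the kappa light chain gene Igkc in each of the 10 samples, as bars from 0. Ighm had between 24 and 82 counts in every sample, while Igkc had 46 to 129 counts in RFPLow samples and 0 or 1 in RFPHigh samples.

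Heavy and light chain counts were thus in different proportion. Igkc made up 45.5, 65.7, 57.1, 61.4 and 63.9% of the Igkc and Ighm counts in the RFPLow samples and 0, 1.82, 2.38, 0 and 0% in the RFPHigh samples. Pooled, the share was 58.8% in RFPLow (416 of 707 counts, exact Clopper-Pearson 95% interval 55.1 to 62.5%) and 0.781% in RFPHigh (2 of 256 counts, 0.0948 to 2.79%). The highest share of any RFPHigh sample, 2.38%, had an upper limit of 12.57%, below the lowest lower limit of an RFPLow sample, 36.1%.

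Other antibody genes, named here after their values were seen, were sparse. The lambda light chain constants Iglc1 and Iglc2 had 16 and 12 counts in RFPLow and 3 and 1 in RFPHigh, with adjusted p of 0.347 and 0.438 (edgeR), so light chain counts in RFPHigh were few with lambda included. The delta heavy chain Ighd, which naive B cells carry beside the mu chain, had 1, 0, 7, 3 and 13 counts in RFPLow and 6, 1, 0, 3 and 6 in RFPHigh (log2 fold change −0.16, 95% interval −1.81 to 1.48, adjusted p = 0.960, edgeR). The class-switched heavy chains Ighg2b and Ighg2c had 13 and 5 counts in RFPLow, 10 and 5 of them in a single sample each, and 0 in RFPHigh (adjusted p = 0.211 and 0.661, edgeR).

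The signalling pair of the B cell receptor was close to the detection limit. Cd79b (ENSMUSG00000040592; chromosome 11, 106311341 to 106314762, minus strand), which encodes Ig-beta, had 3, 0, 2, 0 and 1 counts in RFPLow and 1, 1, 1, 3 and 0 in RFPHigh. Its mean levels were 5.01 ± 6.98 and 4.88 ± 4.37 CPM (SD, n = 5 each). The log2 fold change of 0.23 had a 95% interval of −2.64 to 3.11 (adjusted p = 0.968, edgeR), wide enough to hold large changes in either direction. Cd79a (ENSMUSG00000003379; chromosome 7, 24897381 to 24902197, plus strand), which encodes Ig-alpha, had 1 and 2 counts in the RFPLow samples of mice 1 and 2 and 0 in all others, and was not tested.

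**Figure D2:**
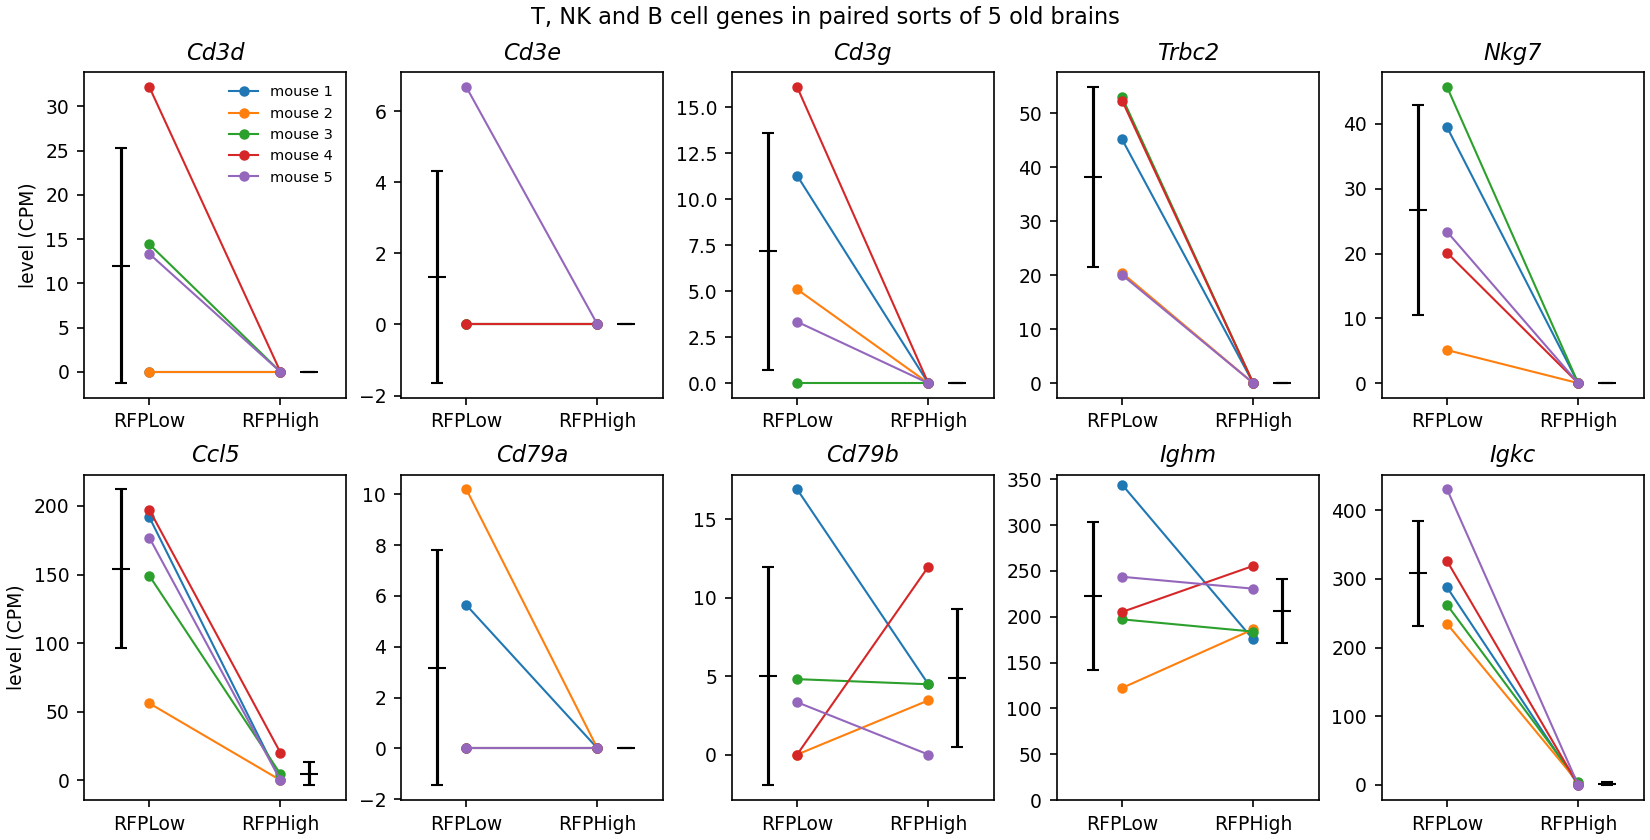
Level of each of the 10 genes in CPM, with the RFPLow and RFPHigh sample of a mouse joined by a line and black marks for mean ± SD (n = 5). Trbc2, Nkg7, Ccl5 and Igkc fell in 5 of 5 mice, Ighm and Cd79b went both ways, and the vertical scales differ between genes.

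Across the 10 genes, 4 were called lower in RFPHigh (Trbc2, Nkg7, Ccl5 and Igkc), 4 were tested and not called (Cd3d, Cd3g, Cd79b and Ighm), and Cd3e and Cd79a had too few counts to test. Of all 14100 tested genes, 789 (5.6%) were called lower and 327 (2.32%) higher. None of the 10 genes was called higher by any of the tools run, and none was higher in 5 of 5 mice (5.69% of tested genes) or higher without overlap (2.78%). None had an unadjusted p under 0.05 in that direction, against 6 lower, where 991 and 1696 of the 14100 tested genes had one. The same 4 genes were lower in every mouse and did not overlap between the groups, where 12.3% of tested genes were lower in 5 of 5 mice and 5.67% lay lower without overlap. Among the tested genes 4.66% had 0 counts in every RFPHigh sample, and 3.23% of those with 10 to 100 counts in total. Cd3d, Cd3g, Trbc2 and Nkg7 were among these genes at 0, Cd3g with fewer than 10 counts. The median log2 fold change of the 8 tested genes was −4.69, or −3.02 with genes at 0 set to their bound, beside −0.18 for all tested genes.

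Summed over the 10 genes, the RFPLow samples held 942, 454, 726, 849 and 921 CPM and the RFPHigh samples 180, 193, 197, 287 and 231 CPM. The sums did not overlap, and the RFPLow sample of mouse 2 was lowest in its group. The means were 778 ± 200 and 218 ± 43.3 CPM (SD, n = 5 each), a pooled ratio of 3.58 (counting interval 3.13 to 4.11). Ighm gave 27.85% of these counts in RFPLow and 94.78% in RFPHigh. Without Ighm, 754 counts in RFPLow stood against 14 in RFPHigh, of which 8 were in mouse 4, a pooled ratio of 49.5 (29.3 to 90.9). The T cell and cytotoxic sums were 58.6 ± 28.2 and 181 ± 68.5 CPM in RFPLow, and the B cell sum was 539 ± 130 CPM (SD, n = 5 each).

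Further genes of the same cells were read from lists of companion genes, 26 for T cells, 17 for NK and cytotoxic cells, 23 for B and plasma cells and 16 for lymphocyte trafficking. Of the 82 genes, 78 had at least 1 count and 63 were tested, of which 15 were called lower and 1 higher in RFPHigh and 47 were not called. The number called lower was 6 without mouse 3, 9 without mouse 1 and 8 with DESeq2. Among the 63 tested, 28 had 0 counts in every RFPHigh sample. Of all 14100 tested genes 5.6% were called lower, 2.32% were called higher and 4.66% had 0 counts in every RFPHigh sample. Genes at 0 in RFPHigh entered the test through their RFPLow counts alone.

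T cell genes were called lower in 6 of 21 tested cases and higher in none, with a median log2 fold change of −3.76 (−1.88 with genes at 0 set to their bound). The summed list had 520 counts in RFPLow and 92 in RFPHigh, a pooled ratio of 5.19 (counting interval 4.15 to 6.55). Of the 92 counts, 48 were from Il7r. Ms4a4b, a membrane protein of T cells, had 10, 13, 61, 15 and 44 counts in RFPLow and 1, 0, 0, 0 and 3 in RFPHigh (log2 fold change −4.64, SE 0.60, adjusted p = 9.01e-13, edgeR). Lef1, a transcription factor of T cells that endothelial cells of the brain also use, had 5, 9, 26, 18 and 4 counts in RFPLow and 4 in RFPHigh, all in mouse 2 (−3.76, SE 0.80, adjusted p = 6.54e-05). Ms4a4b and Lef1 were lower in 5 of 5 mice and called in every setting that tested them.

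The other T cell genes that fell had no RFPHigh count. Tcf7, the partner of Lef1 in naive T cells, had 25 counts in RFPLow (at least 7.66-fold lower, adjusted p = 0.0104), the coreceptor chain Cd8b1 had 19 (at least 5.82-fold, 0.0240) and the costimulatory receptor Cd27 had 19 (at least 5.82-fold, 0.0241, all edgeR). These calls depended on single mice. Without mouse 3 or mouse 4 the adjusted p of Tcf7 was 0.116 or 0.0972, and DESeq2 gave it 0.569. Cd8b1 was lost whichever mouse was left out (0.0573 to 0.139), and Cd27 without mouse 1, 2, 3 or 5 (0.0726 to 0.139). Il7r, the receptor for a survival cytokine, had 69 and 48 counts and a log2 fold change of −0.31 (95% interval −1.16 to 0.55, adjusted p = 0.813, edgeR), and relative to the microglia genes it had −1.38 (adjusted p = 0.00903), close to the −1.23 of the median gene on that scale.

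NK and cytotoxic genes were called lower in 3 of 9 tested cases, and the defining NK receptor gene Ncr1 had 0 counts in all samples. The granzymes Gzmk and Gzmb, proteases of cytotoxic granules, had 21 and 18 counts in RFPLow and 0 in RFPHigh (at least 6.43-fold and 5.51-fold lower, adjusted p = 0.0156 and 0.0326, edgeR). Il2rb, a receptor chain for interleukins of these cells, had 21 and 0 counts (at least 6.43-fold, 0.0237). Gzmb was lost whichever mouse was left out (0.0566 to 0.165), Gzmk without mouse 1, 3 or 5 (0.0535 to 0.171) and Il2rb without mouse 1, 3, 4 or 5 (0.0826 to 0.134). DESeq2 did not call Gzmk (adjusted p = 0.0789) and gave no adjusted p for Gzmb, Il2rb, Cd8b1 and Cd27. Klrd1, an NK receptor subunit, had 24 and 5 counts and was not called (log2 fold change −1.73, SE 1.05, adjusted p = 0.393, edgeR). The median over the 9 genes was −4.33, or −2.20 at their bounds.

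B and plasma cell genes were called lower in 4 of 20 tested cases and higher in 1, with a median of −2.18 (−1.60 at the bounds). Jchain, the joining chain of secreted antibodies, had 4, 4, 23, 6 and 17 counts in RFPLow and 2 in RFPHigh, both in mouse 4 (pooled ratio 24.8, counting interval 6.54 to 210, adjusted p = 2.64e-04, edgeR). Igha, the heavy chain of mucosal antibodies, had 5, 1, 16, 2 and 6 counts in RFPLow and none in RFPHigh (at least 9.19-fold lower, adjusted p = 0.00418, and 0.103 without mouse 3). Vpreb3, a protein of developing B cells, had 26 and 2 counts (pooled ratio 11.9, counting interval 2.99 to 103.8, adjusted p = 0.0412), and was not called without mouse 1, 2 or 3 (0.143 to 0.193) or with DESeq2 (0.146). Cd74, the invariant chain of antigen presentation that B cells share with monocytes, dendritic cells and activated microglia, fell by 3.05 on the log2 scale (SE 0.38, adjusted p = 6.32e-14, edgeR).

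Bank1, a scaffold protein of B cell receptor signalling, went the other way. It had 1, 5, 6, 8 and 14 counts in the RFPLow samples and 16, 19, 5, 24 and 35 in the RFPHigh samples. The level was higher in RFPHigh in 5 of 5 mice although the groups overlapped, with means of 24.9 ± 15.9 and 80.0 ± 44.6 CPM (SD, n = 5 each). The log2 fold change was 1.67 (SE 0.43, adjusted p = 0.00212, edgeR), and relative to the microglia genes, where the median gene had −1.23, it was 0.62 with an adjusted p of 0.294. An antisense gene, Gm31243, overlaps Bank1, and whether it bears on the Bank1 counts was not tested. Cd37, a tetraspanin of B cells and other leukocytes, had 64 and 99 counts (0.72, adjusted p = 0.265), and Cd22, a B cell lectin named after its values were seen, had 8 and 25 (1.91, adjusted p = 0.215, edgeR). Cd37 and Cd22 were not called. Which cells gave the Bank1, Cd37 and Cd22 counts cannot be told from bulk samples.

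Genes for entry into and movement through tissue were mixed. Cxcr6, a chemokine receptor of tissue-resident T cells, had 2, 14, 15, 5 and 12 counts in RFPLow and 0 in every RFPHigh sample (at least 14.7-fold lower, adjusted p = 1.16e-05, edgeR). Ccr2, a receptor of monocytes and effector T cells, had 114 and 11 counts (log2 fold change −3.14, adjusted p = 5.67e-08). S1pr1, which guides lymphocyte exit and is expressed by endothelial cells too, fell by 0.67 on the log2 scale (adjusted p = 0.00757), under the fold threshold. In the list, 2 of 13 tested genes were called lower and none higher, with a median of −0.82.

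**Figure D3:**
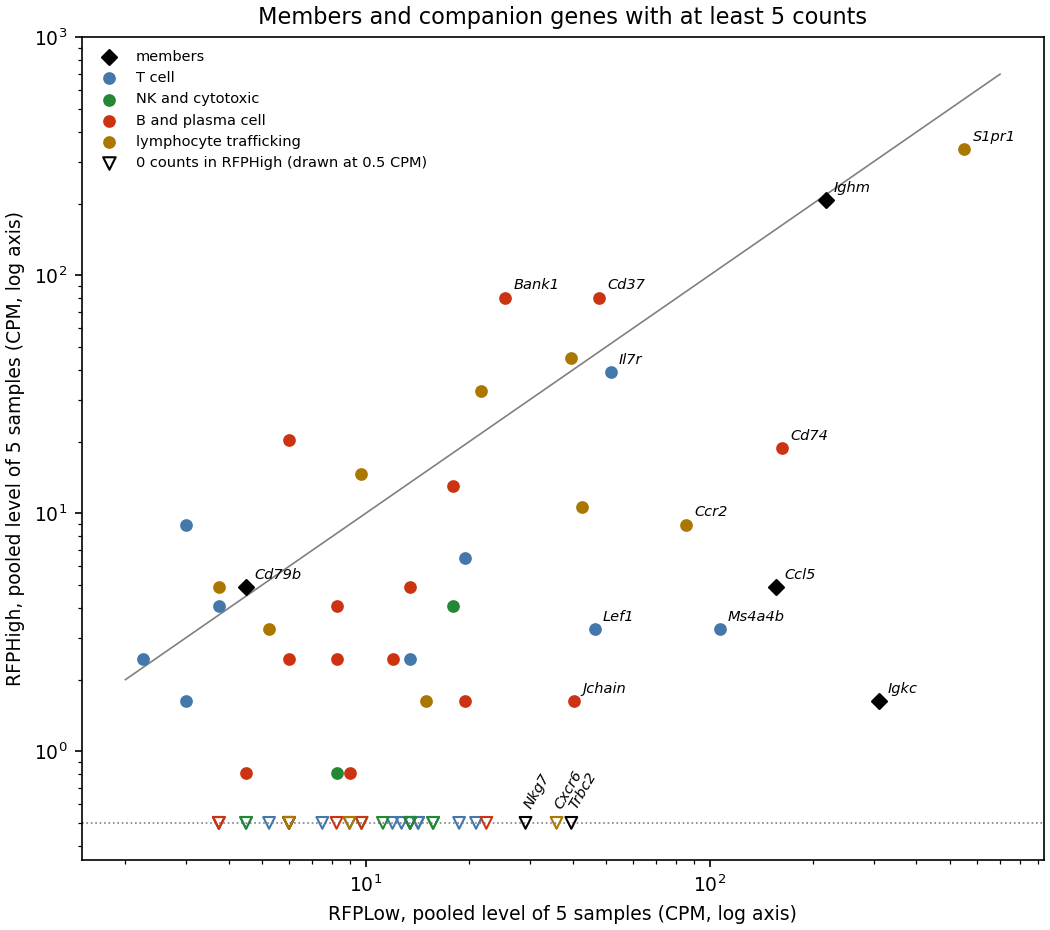
Pooled level of the 5 RFPHigh samples against that of the 5 RFPLow samples for members and companion genes with at least 5 counts (1 companion gene left out), in CPM on log axes, with a line of equal level. Of 63 companion genes 54 had a log2 fold change below 0. Of the 63, 28 had 0 counts in every RFPHigh sample and could only lie below 0. The median over all 14100 tested genes was −0.18, so at least as many tested genes lay below 0 as above it. Open triangles had 0 counts in RFPHigh, and Ighm, Cd79b and Il7r lie near the line while Bank1 and Cd37 lie above it.

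Markers of other blood and vessel cells moved with the lymphocyte genes. Of 8 neutrophil genes 8 were called lower in RFPHigh, as were 10 of 10 endothelial genes, 9 of 11 tested monocyte and dendritic cell genes and 3 of 5 erythrocyte genes. The monocyte and dendritic cell list also held 1 gene that was called higher, Siglech, which microglia express too. The summed levels of these lists were 2413 to 7308 against 0 to 193 CPM (neutrophil), 1664 to 6798 against 89.9 to 355 CPM (endothelial), 2172 to 2516 against 1273 to 1610 CPM (monocyte and dendritic cell) and 394 to 1936 against 0 to 117 CPM (erythrocyte). Siglech alone gave 748 of the 3207 monocyte and dendritic cell counts in RFPLow and 1513 of the 1749 in RFPHigh. The RFPHigh level of that list was thus mostly Siglech. The summed microglia list went from 21580 to 32835 CPM in RFPLow to 46948 to 60527 CPM in RFPHigh, and 13 of its 20 genes were called higher. The part of these cells in the lymphocyte result was not tested.

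Within RFPLow the lists did not rank the mice alike. The RFPLow sample of mouse 5 had the lowest erythrocyte and neutrophil sums, 394 and 2413 CPM, and the highest Igkc. That of mouse 1 had the lowest endothelial sum, 1664 CPM, and the highest sum of the 10 genes. Among the RFPHigh samples, mouse 4 held most Ccl5 counts, the highest Ighm level and the highest endothelial sum, 355 CPM, with a neutrophil sum of 3.99 CPM.

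**Figure D4:**
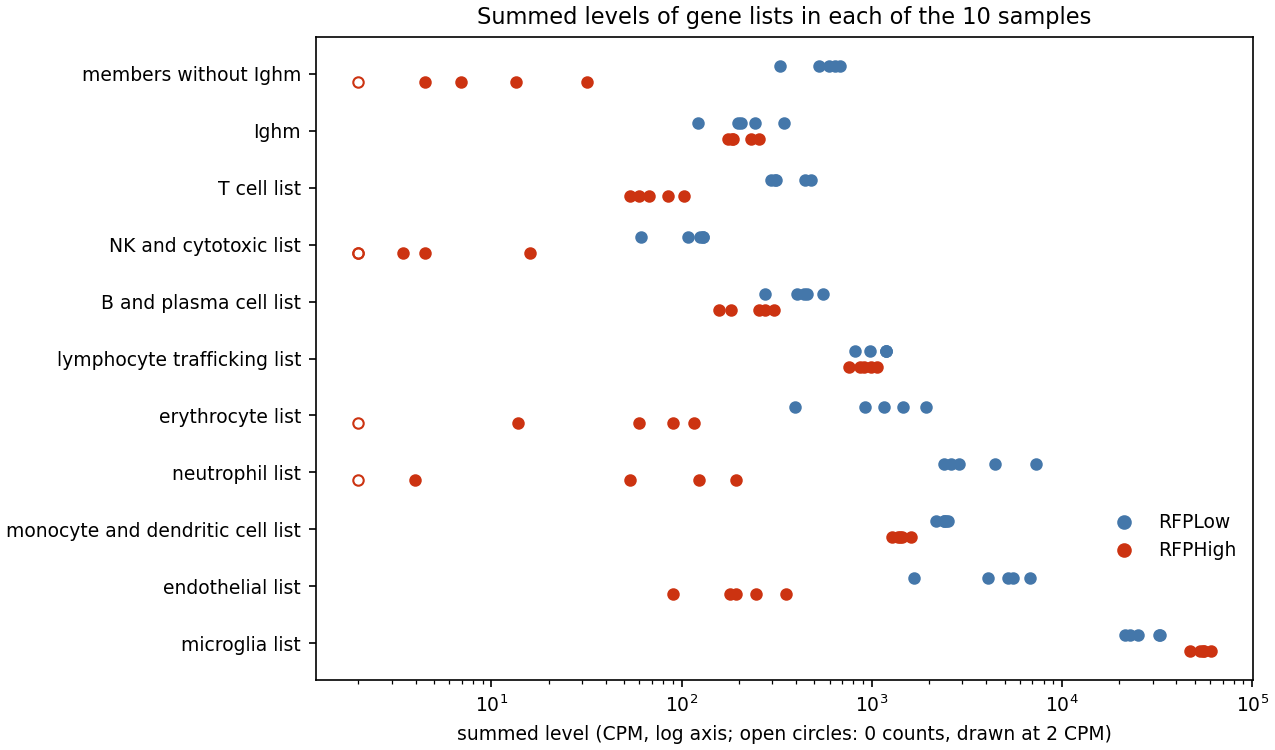
Summed level of the members without Ighm, of Ighm and of each gene list in each of the 10 samples, in CPM on a log axis, with open circles for sums of 0. The RFPLow and RFPHigh samples overlap for Ighm and for B and plasma cell and trafficking companions and separate for the other lists, with microglia alone higher in RFPHigh. Siglech gave 1513 of the 1749 RFPHigh counts of the monocyte and dendritic cell list. Bank1 and Cd37 gave 99 each of the 289 RFPHigh counts of the B and plasma cell list.

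After each population's mean was subtracted, the genes whose levels over the 10 samples were most like the sum of the 10 lymphocyte genes were Bscl2, Gab2 and Dpm2, with Pearson's r of 0.93, 0.91 and 0.91 among 7035 genes ranked. These are the highest of 7035 correlations over 10 samples, so values of this size can come from the ranking alone. A link to the lymphocyte genes was not tested. Bscl2, Gab2 and Dpm2 had 43, 21 and 26 counts in RFPLow and 52, 37 and 45 in RFPHigh. All of them were at their lowest in the RFPLow sample of mouse 2, with 1, 0 and 0 counts, and at their highest in the RFPHigh sample of mouse 4. In these same samples the sum of the 10 genes was lowest within RFPLow and highest within RFPHigh. Ighm gave 94.78% of the summed counts in RFPHigh, so there the sum mostly followed Ighm. None of Bscl2, Gab2 and Dpm2 was called between the populations (adjusted p = 0.697, 0.391 and 0.327, edgeR).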

How the data were processed

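Bulk 3' tag libraries of 10 sorted samples from 5 mice were analysed. The single-cell samples were not analysed here. The authors made QuantSeq 3' FWD libraries and ran the Lexogen pipeline for unique molecular identifiers, and the deposited values are raw counts per gene, not normalized. The aligner and annotation of the bulk data are not given in the sources used here, and mm10 and Cell Ranger 3.0.0 stand in the submitters' processing notes without a role. GENCODE M21 gave symbols for 47224 of 47643 identifiers, and GRCm38 coordinates. Reads on no gene made up 32.1 to 37.2% per RFPLow sample and 38.4 to 48.6% per RFPHigh sample, without overlap. These reads and ambiguous reads (0.295 to 0.436%) stayed out of library sizes.

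The authors' own test was the edgeR likelihood ratio test with mouse as a factor. Here the counts were fitted with edgeR 4.0.16 in R 4.3.3 (robust quasi-likelihood, TMM, mouse as block). Of 18571 genes with at least 1 count, 14100 had at least 5 counts and were tested. The pairing comes from the labels, which give each sample its mouse. Deviations of paired samples from their population means correlated by 0.10, −0.001, 0.05, 0.01 and 0.01. DESeq2 1.42.0, limma 3.58.1 with voom, other scalings, other filters, no block and leaving out each mouse were alternatives. A count of 0 was taken to allow 3 counts over the group, with the RFPLow counts taken as exact. Intervals of pooled ratios and of shares cover counting error only.

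The 10 genes and the companion lists were chosen with earlier results of these data known. Named are the 10 genes, each companion gene that was called, the 3 of each companion list with most counts, and the 3 genes of at least 50 counts most like the summed members in log2 CPM (prior count 2). A gene of the trafficking list that this rule would name is not reported here. Others are said to be named after their values were seen.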

Additional observations from a re-analysis of the deposited data

Results flagged for a closer look

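In 76 groups of 5 values from 1 population, 10 values stood apart from the other 4 by the gap to the nearest sample, where about 4 would by chance if values were normal, and several share counts. A group with counts in only 1 sample is always flagged, so the number flagged does not show an excess. The RFPHigh sample of mouse 4 had 19.96 CPM of Ccl5, against 0 to 4.48 CPM in the other RFPHigh samples. As no other T cell or cytotoxic member had a count there, the same 19.96 CPM is its sum over the NK and cytotoxic members and over the T cell, NK and cytotoxic members together. The same sample had 15.97 CPM of the NK and cytotoxic companion list (others 0 to 4.49) and 7.985 CPM of Jchain (others 0). The RFPHigh sample of mouse 2 had 13.81 CPM of Lef1 and 6.903 CPM of Vpreb3, where the other RFPHigh samples had 0.

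Among the RFPLow samples, mouse 2 was low for the NK and cytotoxic members, with 61.19 CPM against 194.8 to 231.3 CPM. Mouse 5 had 6.674 CPM of Cd3e from 2 counts (others 0), and mouse 1 had 16.92 CPM of Cd79b from 3 counts (others 0 to 4.81).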

How the results depend on the processing

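Trbc2, Nkg7, Ccl5 and Igkc were called lower in every setting that tested them, and the number of the 10 genes called lower was 4 whichever mouse was left out. It was 5 with the likelihood ratio test, limma voom or no replicate block, each of which added Cd3d (adjusted p = 0.0159, 0.0318 and 0.00955). With library sizes taken from the microglia list, 4612 genes were called lower and 6 higher, 7 of the 10 genes and 34 companion genes were called lower and no companion gene higher (0), the log2 fold change of Ighm was −1.07, and the summed difference of the 10 genes was −947.1 CPM in place of −560.8. A stricter filter, edgeR's filterByExpr, left 4210 genes with 3 of the 10 among them, and 371 genes, 2 of the 10 genes and 3 companion genes were called lower. Without a fold threshold 505 genes and 2 companion genes were called higher. DESeq2 called 205 genes higher and 8 companion genes lower, and gave no adjusted p for Cd3d, Cd3g and Cd79b. Without the replicate block, 25 companion genes were called lower in place of 15, with 970 genes lower and 383 higher in place of 789 and 327. Leaving out 1 mouse at a time gave 588 to 717 genes lower, 289 to 376 higher, 6 to 11 companion genes lower (6 without mouse 3 and 9 without mouse 1), 1 to 2 higher, and a summed difference of −635.8 to −510.4 CPM. Without Ighm and Igkc the summed difference was −238.02 CPM. The cause of these changes was not tested, beyond the fewer genes or samples that enter some settings. The depth, with a median of 248471 counts per RFPLow and 242798 per RFPHigh sample, limits all statements on Cd3e, Cd3g, Cd79a and Cd79b, whose levels were at a few counts.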
